A study of Homo sapiens with 19 samples.

Results

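The genes described here are the members of the 4 human HOX clusters, taken as every row whose symbol is in full HOXA, HOXB, HOXC or HOXD followed by digits. They were 39 of the 34825 gene symbols in each of 2 expression tables: 11 of HOXA, 10 of HOXB, 9 of HOXC and 9 of HOXD. The tables hold mRNA-seq values of HepG2, a human liver cancer cell line. In the first experiment cells received 50 nM of the control siRNA labelled NTG, of siINO80#1 or of siINO80#2, and each group had 3 libraries (A, B and C). INO80 is the ATPase of the chromatin remodelling complex of the same name. In the second, cells were kept in 1 µM EPZ-6438 or in DMSO from 3 days before they received 50 nM of NTG or of siMCRS1, an siRNA against MCRS1, a subunit of the INO80 complex. There were 2 libraries of DMSO with NTG, 3 of DMSO with siMCRS1, 3 of EPZ-6438 with NTG and 2 of EPZ-6438 with siMCRS1. All cells were harvested 72 h after transfection, and every group, controls included, was transfected with an siRNA. Each siRNA against MCRS1 or INO80 was read in a single cell line, and MCRS1 was targeted with 1 siRNA label only.

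HOX genes encode homeodomain transcription factors that give cells their position along the head-to-tail axis of the embryo. Their order along each chromosome matches the order in which they are used, from low-numbered genes at the anterior end to high-numbered genes at the posterior end, and genes with the same number in different clusters are paralogs. In most adult cells the clusters are divided into active stretches and stretches that carry H3K27me3, the mark that Polycomb repressive complex 2 (PRC2) places through EZH2 or EZH1. EPZ-6438 inhibits the methyltransferase EZH2.

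In GRCh38 the HOXA cluster lies on the minus strand of chromosome 7, the HOXB cluster at chr17:48528526-48728750 on the minus strand, the HOXC cluster at chr12:53938831-54056030 on the plus strand and the HOXD cluster at chr2:176087487-176190907 on the plus strand. The last 3 span 200.2, 117.2 and 103.4 kb. Promoter windows from RefSeq (GRCh38.p14) were at hand for 20 of the 39 genes, as 27 windows of 250 bases before a start. The 4 windows below belong to genes that each passed the threshold in a comparison that follows. The calls of HOXA13 in the drug table lend no support to a change, for a reason given with its values. For HOXA3, with 7 starts in the table, the outermost start is shown, and which start HepG2 cells use was not tested. Capitals mark 3 words that were searched on both strands: AAGATGGC, a core that YY1 binds (YY1 is itself a subunit of the INO80 complex), CCAAT, read as ATTGG on the other strand, and the E-box CACGTG.
HOXA3 chr7:27152584-27152833 (minus strand): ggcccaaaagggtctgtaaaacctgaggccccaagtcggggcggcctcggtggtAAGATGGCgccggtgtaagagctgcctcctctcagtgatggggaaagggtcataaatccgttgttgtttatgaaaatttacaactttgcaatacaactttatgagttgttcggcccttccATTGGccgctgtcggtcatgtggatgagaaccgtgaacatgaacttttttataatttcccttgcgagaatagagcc
HOXA4 chr7:27130758-27131007 (minus strand): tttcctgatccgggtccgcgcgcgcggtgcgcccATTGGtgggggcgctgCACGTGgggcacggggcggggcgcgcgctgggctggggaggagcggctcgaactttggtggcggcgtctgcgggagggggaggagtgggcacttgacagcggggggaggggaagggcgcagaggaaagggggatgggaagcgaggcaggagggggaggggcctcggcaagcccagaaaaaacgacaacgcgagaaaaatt
HOXA13 chr7:27200092-27200341 (minus strand): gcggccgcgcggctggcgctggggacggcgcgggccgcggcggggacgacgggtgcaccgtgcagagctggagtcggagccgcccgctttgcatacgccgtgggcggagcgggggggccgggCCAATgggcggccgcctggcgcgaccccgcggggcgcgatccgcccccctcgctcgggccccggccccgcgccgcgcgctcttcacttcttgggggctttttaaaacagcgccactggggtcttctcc
HOXD1 chr2:176188418-176188667 (plus strand): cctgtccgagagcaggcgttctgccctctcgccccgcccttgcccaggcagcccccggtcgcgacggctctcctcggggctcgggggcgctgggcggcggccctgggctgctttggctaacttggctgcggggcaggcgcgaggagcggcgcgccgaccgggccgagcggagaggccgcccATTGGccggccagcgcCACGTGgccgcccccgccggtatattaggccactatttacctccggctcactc

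The YY1 word began 196 bases before the HOXA3 start and was in 1 of the 27 HOX windows, against 1.36% of 35116 windows of all genes. A CCAAT box was in all 4 printed windows and in 66.7% of the HOX windows, against 32.0% of all windows. An E-box was in 29.6% of the HOX windows, against 6.34% of all. In the windows of HOXA4 and HOXD1 both words occurred in the same orientation with 11 bases between them. They began 216 and 200 bases before the start of HOXA4, and 69 and 53 bases before that of HOXD1. This arrangement, searched after it was seen in these windows, was in 32 of all windows (0.0911%), among them that of HOXD13. The windows of HOXA4, HOXA13 and HOXD1 held 26, 40 and 31 CG dinucleotides, against a median of 11 over all windows, and the HOXA3 window held 11. A word is a match of letters and not a measured binding site.

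Each value is a normalized count: reads assigned to a gene divided by 1 size factor per library. The tables were scaled apart, so levels were compared only within a table. Library depth was 17093574 to 25369547 reads in the INO80 table and 26038505 to 47397233 in the drug table, and 3 reads, taken as the floor, were worth 2.30 to 3.58 and 2.13 to 4.30 normalized counts; this floor covers counting error only, while the 95% intervals are limma's and come from the spread between libraries. INO80 had 1264 ± 82.2 normalized counts (SD, n = 3) in NTG, 608 ± 31.3 in siINO80#1 and 460 ± 21.7 in siINO80#2. In DMSO the level of MCRS1 was 1430 ± 208 with NTG (SD over 2 libraries) and 114 ± 28.5 after siMCRS1 (SD over 3), and in EPZ-6438 it was 1363 ± 166 and 108 ± 24.8. Library C of siINO80#2 stood apart from its group: the chi-square per degree of freedom against its replicates was 84.3 and 121, where all other replicate pairs of that table had 9.45 to 18.7. All 12 hepatocyte markers had means above 10 in both tables, with ALB at 109073 to 229644 and 162036 to 280466 normalized counts. Of 12 markers of other cells, 7 reached a mean of 10 in each table, and the T cell marker CD3E was at 0 in every library of the INO80 table. SOX9, listed for bile duct cells, had 3556 to 4929 normalized counts in the INO80 table and 4653 to 6762 in the drug table. It makes up most of the sums of these markers given below. PECAM1, listed for endothelium, had 191 to 326 and 138 to 228, and PTPRC, listed for blood, 15.7 to 35.9 and 9.70 to 26.3. In these bulk libraries fewer cells that express a gene and less RNA per cell cannot be told apart, and since no label says that replicates were separate cultures, p-values measure only the spread between these libraries, which may be technical.

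HOX expression in these cells was carried by 4 genes in the anterior parts of 2 clusters. HOXA3, HOXA4, HOXA5 and HOXD1 together held 87.1 to 92.6% of the summed HOX counts of a library in the INO80 table and 87.2 to 92.9% in the drug table. HOXA3 alone held 38.7 to 51.7% and 31.1 to 47.6%. Per kilobase of canonical transcript, HOXA3 had the highest mean, 110 ± 22.3 normalized counts (SD over 9 libraries), followed by HOXD1 with 82.2 ± 24.6, HOXA4 with 77.0 ± 23.1 and HOXA5 with 28.7 ± 4.97. HOXA3 exceeded HOXD1 in 7 of 9 libraries and HOXD1 exceeded HOXA4 in 6 of 9, so the neighbours in this order did not separate in every library, while HOXA4 exceeded HOXA5 in 9 of 9. In the drug table the means over all groups had the same order, at 157 ± 60.5, 123 ± 53.8, 120 ± 43.6 and 74.5 ± 16.8 per kilobase (SD over 10 libraries). HOXC9 followed in both tables. In the drug table HOXA3 exceeded HOXD1 in 9 of 10 libraries, HOXD1 exceeded HOXA4 in 5 of 10 and HOXA4 exceeded HOXA5 in 9 of 10. The order differed between groups there, since HOXA4 per kilobase was above HOXA3 with siMCRS1. These genes may not all be read apart. The annotated span of HOXA3, chr7:27107010-27152583, contains HOXA4, HOXA5 and HOXA6 on the same strand. It also overlaps the antisense genes HOXA-AS2 and HOXA-AS3, and HOXD1 overlaps HAGLR on the other strand. Spans include introns, and overlap of exons was not examined. Whether counting used the strand is not given in the sources used here.

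Most other members were near or under the floor. HOXC9 was above it in every library of both tables, and HOXA2 in every library of the drug table. Of the 39 members in the INO80 table, 5 reached a mean of 10 normalized counts and were tested, 17 had a mean of 1 to 10, 11 had a mean under 1 with some reads, and 6 had no read in any library (HOXB1, HOXB8, HOXC4, HOXD11, HOXD12 and HOXD13). In the drug table the numbers were 8, 12, 13 and 6, and the members without reads were HOXB1, HOXB2, HOXB4, HOXB5, HOXD12 and HOXD13. A count of 0 in a single library allows up to 3 expected reads. These genes were at 0 in all libraries of a table, so they were not detected at this depth. All HOXB genes together summed to 5.96 to 17.9 normalized counts in a library of the INO80 table and 0.800 to 11.5 in the drug table. The highest of them in the INO80 table was HOXB13, a posterior gene best known from prostate, with 2.23, 3.08 and 4.80 in NTG, 2.38, 1.98 and 3.50 in siINO80#1, and 10.1, 2.30 and 5.67 in siINO80#2. In the drug table it was HOXB7, with 6.70 and 2.86 in DMSO with NTG, 2.23, 4.41 and 2.86 in DMSO with siMCRS1, 1.08, 1.42 and 0 in EPZ-6438 with NTG, and 0 and 3.55 in EPZ-6438 with siMCRS1. Most of these values were at or under 3 reads, and no fold is given for them.

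**Figure D1:**
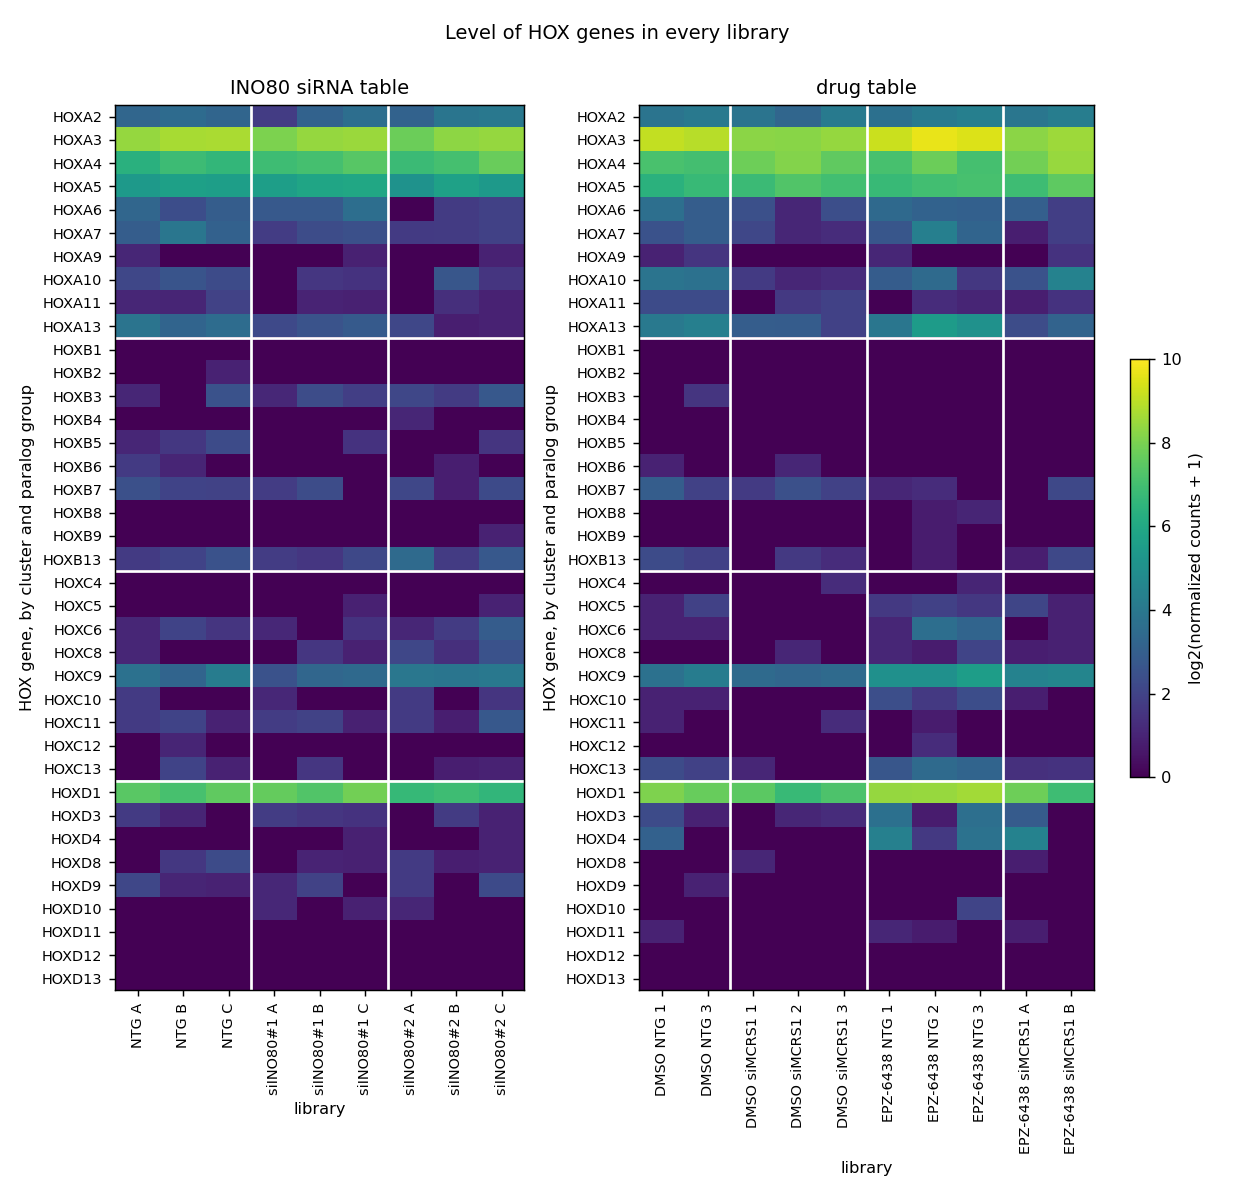
Level of 38 of the 39 HOX genes (rows, by cluster and paralog number) in each library (columns), as log2(normalized counts + 1), in the INO80 table (left) and the drug table (right); white lines separate clusters and groups. HOXA3, HOXA4, HOXA5 and HOXD1 stand out in every library, and 4 of the 10 HOXB genes have no reads in the drug table.

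The first comparison asked what loss of INO80 did to the HOX genes. With siINO80#2 HOXD1 fell, HOXA3 fell by a call that passed in 10 of 20 alternatives, and HOXA4 went the other way without passing the threshold. HOXA3, a paralog group 3 gene used in the pharyngeal region of the embryo, had 342, 415 and 427 normalized counts in NTG libraries A, B and C, 261, 339 and 358 in siINO80#1, and 212, 316 and 338 in siINO80#2. The siINO80#2 values all lay below the NTG values, while the siINO80#1 libraries overlapped NTG. The log2 fold change was -0.47 with siINO80#2 (standard error 0.18, 95% interval -0.88 to -0.07, adjusted p = 0.0478 from limma) and -0.31 with siINO80#1 (95% interval -0.72 to 0.09, adjusted p = 0.201). The siINO80#2 call was lost in edgeR (adjusted p = 0.0642), in limma without a filter on low values (adjusted p = 0.0607) and when library A of siINO80#2, or library B or C of NTG or of siINO80#1, was left out, within a range of 0.00239 to 0.178 over all alternatives.

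HOXD1, at chr2:176188668-176190907, is the anterior-most gene of its cluster. It had 175, 136 and 189 normalized counts in NTG, 197, 154 and 230 in siINO80#1, and 103, 118 and 93.5 in siINO80#2. The siINO80#2 libraries lay below all libraries of the other groups. The log2 fold change was -0.65 against NTG (standard error 0.18, adjusted p = 0.00948) and -0.86 against siINO80#1 (standard error 0.18, adjusted p = 0.00707), while siINO80#1 gave 0.21 against NTG (95% interval -0.19 to 0.60, adjusted p = 0.380). The response of HOXD1 therefore differed between the siRNAs by the test of the difference itself, and INO80 was 608 ± 31.3 with one and 460 ± 21.7 with the other.

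HOXA4 had 80.3, 116 and 97.0 normalized counts in NTG, 119, 132 and 168 in siINO80#1, and 112, 133 and 211 in siINO80#2. All siINO80#1 libraries were above all NTG libraries, and 1 siINO80#2 library was inside the NTG range. The log2 fold changes were 0.51 (95% interval -0.01 to 1.03, adjusted p = 0.106) and 0.60 (95% interval 0.08 to 1.12, adjusted p = 0.0515), and edgeR called the second (adjusted p = 0.0430, with 0.0173 to 0.174 over all alternatives). The ratio of HOXA4 to HOXA3 counts within a library, which no scaling of libraries can move, was 0.247 ± 0.0285 in NTG (SD, n = 3), 0.438 ± 0.0433 in siINO80#1 and 0.525 ± 0.1004 in siINO80#2. Its NTG range, 0.227 to 0.280, lay below the ranges of both siRNAs, 0.389 to 0.469 and 0.422 to 0.623; this ratio was chosen after its values were seen and was not tested.

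HOXC9, a trunk-level gene and the highest of its cluster, had 12.3, 8.21 and 17.3 normalized counts in NTG, 4.77, 8.92 and 9.62 in siINO80#1, and 14.6, 13.8 and 15.1 in siINO80#2. The groups overlapped NTG in both comparisons (adjusted p = 0.198 and 0.597). HOXA5 ranged from 33.7 to 60.3 over the 9 libraries and passed in none of the comparisons. Thus 0 of 5 tested members passed with siINO80#1, where 20.7% of all 14034 genes tested were higher and 20.8% lower; none had an unadjusted p under 0.05, and edgeR also called 0. With siINO80#2, 0 were higher and 2 lower, against 26.6% and 28.4% of all genes. Between the siRNAs, 0 were higher and 1 lower in siINO80#2, against 9.48% and 12.6%. The median log2 fold change of the 5 members was 0.21 with siINO80#1 and -0.15 with siINO80#2, against 0.00 for all genes in both. With the letter of the replicate as a block in the fit, HOXA4 was called higher and HOXA3 lower with siINO80#1.

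Without library C of siINO80#2, HOXA3 gave -0.60 (adjusted p = 0.0196) and HOXD1 -0.58 (adjusted p = 0.0275) with siINO80#2, and HOXD1 gave -0.79 (adjusted p = 0.0174) between the siRNAs. HOXA4 gave 0.34 with siINO80#2 (adjusted p = 0.174), and its 0.51 with siINO80#1 then passed the threshold (adjusted p = 0.0334). The summed markers of other cells were 4060 to 4231 normalized counts in NTG, 4501 to 5255 in siINO80#1 and 4338 to 5598 in siINO80#2. Among them COL1A1, a fibroblast collagen, was 73.9 to 125 in NTG, 120 to 176 in siINO80#1 and 46.7 to 77.4 in siINO80#2, so it was lower in siINO80#2 than in siINO80#1 without overlap, as HOXD1 was. The part of these markers in the HOX differences was not tested.

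**Figure D2:**
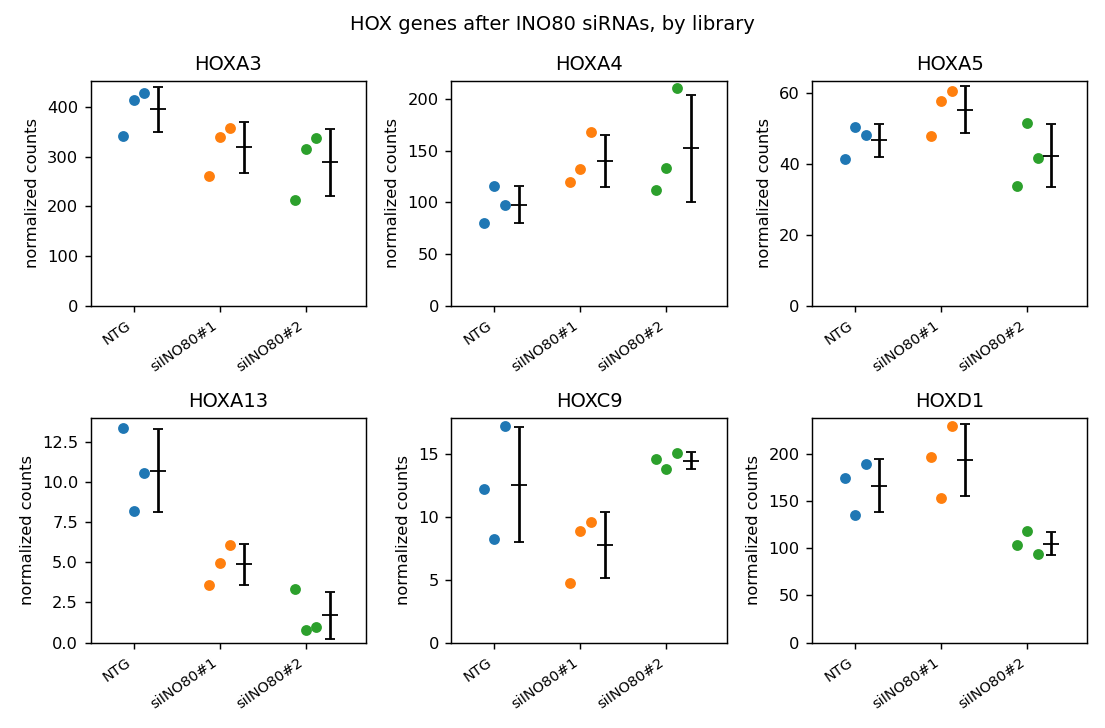
Normalized counts of 6 HOX genes in each library (points) of NTG, siINO80#1 and siINO80#2, with the mean and SD of each group of 3 (black). HOXD1 is lowest in siINO80#2, HOXA3 is lower and HOXA4 higher on average with both siRNAs, and HOXA13 is at 0.766 to 3.37 in siINO80#2.

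Members under the filter were fitted without it as a check, and they are named here because of their values. HOXA13, the posterior-most HOXA gene, at chr7:27194364-27200091, had 13.4, 8.21 and 10.6 normalized counts in NTG, 3.58, 4.96 and 6.12 in siINO80#1, and 3.37, 0.766 and 0.945 in siINO80#2. The 3 groups did not overlap, and the siINO80#2 values were 1 to 3 reads per library. In the fit without a filter HOXA13 was lower with siINO80#2 (log2 fold change -2.23, standard error 0.46, adjusted p = 0.00247), and edgeR without a filter called it too (adjusted p = 0.00167). HOXA7 was 6.69 to 14.4 in NTG and 2.24 to 2.83 in siINO80#2 (log2 fold change -1.55, adjusted p = 0.0144, and 0.0128 in edgeR). HOXA6 (adjusted p = 0.0404) was lower and HOXC8 (adjusted p = 0.0273) higher in limma only, each with at most 5 reads in any siINO80#2 library. In limma without a filter 1 of 33 members with reads was higher and 4 lower with siINO80#2, against 15.1% and 15.8% of all 24622 genes, and in edgeR without it 1 was higher and 4 lower, against 15.2% and 16.1%. With siINO80#1 none of the 33 passed in either fit, against 11.1% higher and 11.2% lower of all genes in limma and 11.4% and 11.6% in edgeR. A level near 3 reads gives no firm fold.

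**Figure D3:**
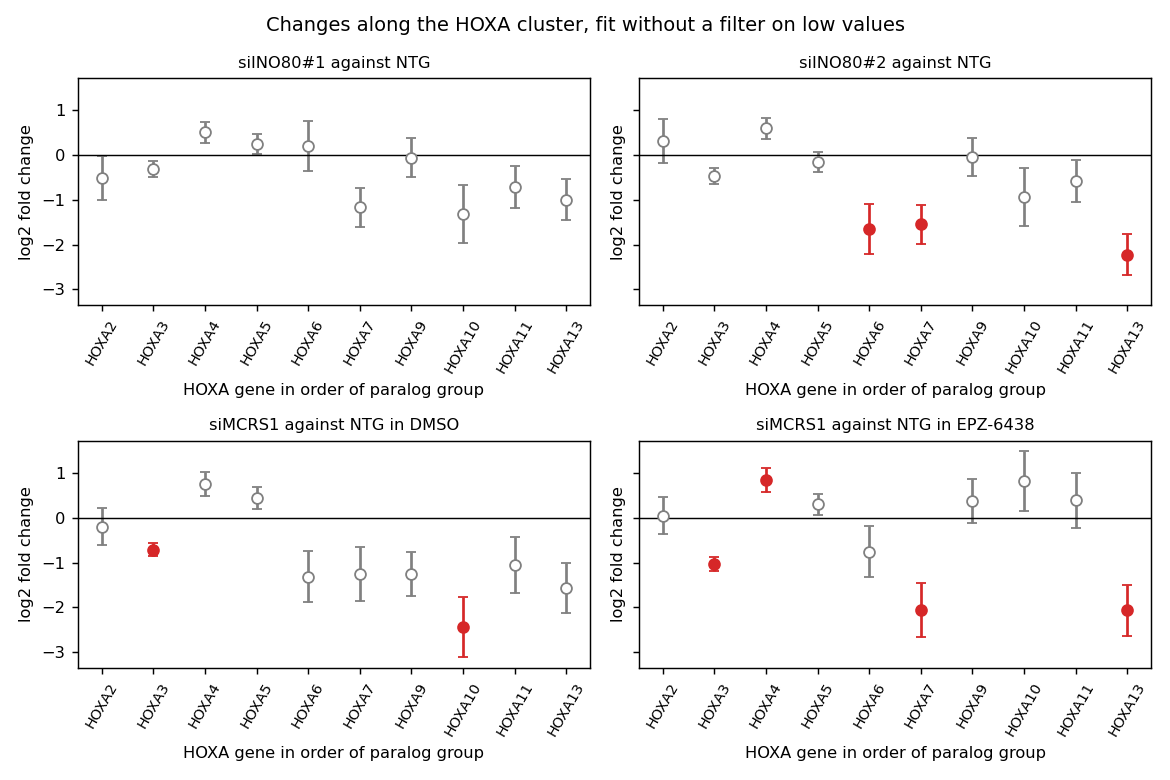
Log2 fold change with its standard error for 10 of the 11 HOXA genes, in order of paralog number, in 4 siRNA comparisons from the limma fit without a filter on low values; red filled points have an adjusted p under 0.05. HOXA3 is below 0 and HOXA4 above 0 in every panel, and HOXA7 and HOXA13 are below 0 in every panel; the upper panels share NTG libraries.

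The second comparison asked the same of MCRS1, with and without EPZ-6438. HOXA3 fell with siMCRS1 in both treatments and under every alternative, and HOXA4 rose in both by calls that some alternatives lost. HOXD1 was below NTG in every siMCRS1 library of its treatment, and in the main fit it passed the threshold in EPZ-6438 only. HOXA3 had 535 and 487 normalized counts in DMSO with NTG and 305, 294 and 338 in DMSO with siMCRS1. In EPZ-6438 it had 589, 806 and 714 with NTG and 310 and 372 with siMCRS1. In both treatments the siMCRS1 libraries lay below all NTG libraries. In DMSO the log2 fold change was -0.71 (standard error 0.16, adjusted p = 0.00368), and it was -1.04 with EPZ-6438 present (standard error 0.16, adjusted p = 0.000295).

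HOXA4, which lies inside the annotated span of HOXA3, moved the other way. It had 141 and 129 normalized counts in DMSO with NTG and 219, 284 and 189 with siMCRS1. In EPZ-6438 it had 137, 216 and 132 with NTG and 231 and 351 with siMCRS1. The siMCRS1 libraries were above all NTG libraries of their treatment. The log2 fold changes were 0.75 (standard error 0.26, adjusted p = 0.0365) and 0.85 (standard error 0.26, adjusted p = 0.0189). On equal library totals, which moved the median of all genes to -0.23 in both treatments, they were 0.52 (adjusted p = 0.0996) and 0.61 (adjusted p = 0.0523) and no longer passed. The call in DMSO was also lost without a filter in limma (adjusted p = 0.0620), and it held in 13 of 20 alternatives, against 16 of 20 for that in EPZ-6438. The ratio of HOXA4 to HOXA3 within a library was 0.264 ± 0.00123 for NTG in DMSO (SD over 2 libraries) and 0.748 ± 0.205 for siMCRS1 in DMSO (SD over 3), and 0.229 ± 0.0413 and 0.846 ± 0.140 in EPZ-6438. Its highest NTG value was 0.268 and its lowest siMCRS1 value 0.559.

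HOXA13 had 15.3 and 19.1 normalized counts in DMSO with NTG and 6.68, 6.61 and 2.86 with siMCRS1. In EPZ-6438 it had 14.0, 43.3 and 32.6 with NTG and 4.0 and 7.99 with siMCRS1. Both siMCRS1 groups lay below both NTG groups, with the widest spread in EPZ-6438 with NTG. HOXA13 reached the filter on low values only through EPZ-6438 with NTG, where its mean was 30.0 normalized counts, against 8.93 over the other 7 libraries, so its p-values lend no support to a fall. The log2 fold changes were -1.57 (standard error 0.55, adjusted p = 0.0354) and -2.07 (standard error 0.55, adjusted p = 0.00845) with the filter, and without it the adjusted p was 0.0668 in DMSO and 0.0170 in EPZ-6438 (0.0302 and 0.00107 in edgeR). Under quantile normalization it did not pass in DMSO either.

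HOXD1 had 267 and 204 normalized counts in DMSO with NTG and 178, 105 and 146 with siMCRS1, and the groups did not overlap (log2 fold change -0.74, 95% interval -1.36 to -0.12, adjusted p = 0.0506). In EPZ-6438 it had 339, 350 and 392 with NTG and 221 and 117 with siMCRS1, again without overlap (log2 fold change -1.16, standard error 0.28, adjusted p = 0.00536). HOXC9 was below NTG in every siMCRS1 library of its treatment, at log2 fold changes of -0.56 (95% interval -1.29 to 0.17, adjusted p = 0.186) and -0.70 (95% interval -1.43 to 0.02, adjusted p = 0.0947). HOXA2 and HOXA5, anterior genes at 8.81 to 184 normalized counts, passed in neither treatment, with adjusted p-values of 0.142 to 0.927.

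Of 8 tested members, 1 was higher and 2 lower in DMSO, against 23.1% and 24.6% of all 14312 genes tested. In EPZ-6438 1 was higher and 3 lower, against 26.8% and 26.9%. HOXA13, whose p-values lend no support to a fall, is 1 of the lower members in each. The median log2 fold change of the 8 members was -0.38 in DMSO and -0.39 in EPZ-6438, against 0.00 and 0.01 for all genes. The count in DMSO fell to 1, HOXA3, when either library of DMSO with NTG was left out, and the count in EPZ-6438 fell to 2 without library B of EPZ-6438 with siMCRS1, where HOXA4 gave 0.55 (adjusted p = 0.201) and HOXD1 -0.70 (adjusted p = 0.0819). COL1A1 was 223 to 270 normalized counts in DMSO with NTG and 348 to 772 with siMCRS1, and 58.2 to 158 and 577 to 675 in EPZ-6438. Of the other fibroblast markers, COL1A2 and DCN had means under 10 in the drug table and PDGFRB reached 10. The 12 markers summed to 5434 to 5602, 5571 to 6148, 5083 to 7404 and 6446 to 6914 in these groups, and their part in the HOX differences was not tested.

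**Figure D4:**
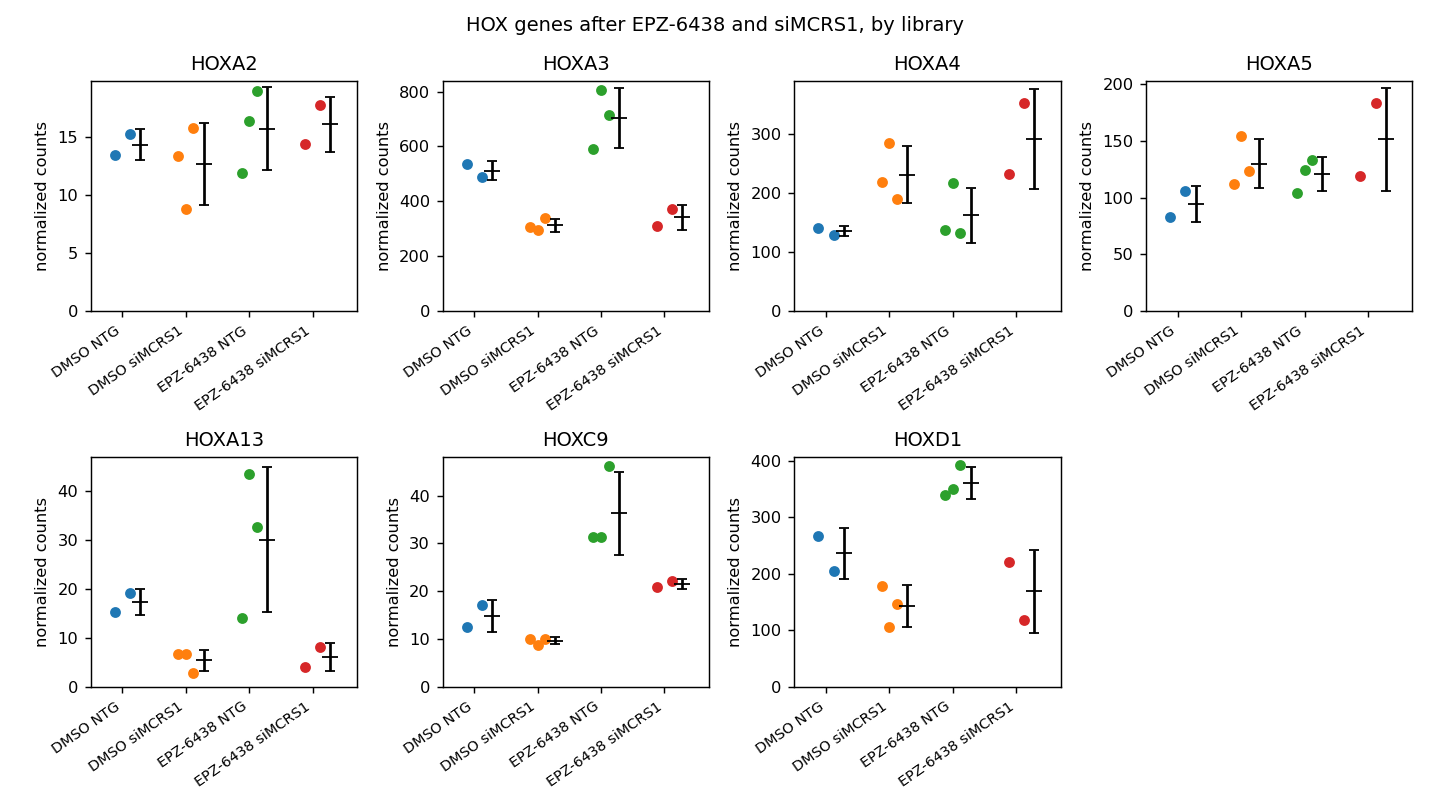
Normalized counts of 7 of the 8 tested HOX genes in each library (points) of the 4 groups of the drug table, with the mean and SD of each group of 2 or 3 (black). HOXA3, HOXA13 and HOXD1 are lower and HOXA4 higher in siMCRS1 groups than in NTG groups of the same treatment, and HOXC9 is higher in EPZ-6438 than in DMSO.

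Members under the filter are again named for their values. HOXA10 had 13.4 and 12.4 normalized counts in DMSO with NTG and 2.23, 1.10 and 1.43 with siMCRS1 (log2 fold change without a filter -2.45, adjusted p = 0.0197, and 0.00527 in edgeR). In EPZ-6438 HOXA10 was 2.10 to 9.95 with NTG and 4.80 and 20.4 with siMCRS1, and the groups overlapped. HOXC13 and HOXC5 passed in DMSO (adjusted p = 0.0217 and 0.0393), where no library had more than 4 reads of either, and edgeR called neither. In EPZ-6438 HOXA7, HOXC6, HOXC10 and HOXC13 were lower in limma without a filter (adjusted p = 0.00805 to 0.0299), and edgeR called HOXA7, HOXC6 and HOXC13. Without a filter 0 of 33 members were higher and 4 lower in DMSO in limma, against 11.8% and 13% of all 25804 genes, and 1 was higher and 4 lower in edgeR, against 12% and 13.4%. In EPZ-6438 1 was higher and 7 lower in limma, against 14% and 14.7%, and 1 was higher and 6 lower in edgeR, against 14.7% and 15.1%. HOXA7 was 5.39, 19.2 and 8.41 with NTG and 0.800 and 2.66 with siMCRS1.

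The third comparison asked whether the HOX genes were higher in EPZ-6438 than in DMSO. H3K27me3 itself was not measured in these libraries. No member passed the threshold with EPZ-6438 in either siRNA background, and HOXC9 was the member with the lowest p in both. HOXC9 had 12.4 and 17.2 normalized counts in DMSO with NTG and 31.2, 31.3 and 46.3 in EPZ-6438 with NTG. With siMCRS1 it had 10.0, 8.81 and 10.0 in DMSO and 20.8 and 22.2 in EPZ-6438. In both backgrounds every EPZ-6438 library was above every DMSO library. The log2 fold changes were 1.23 (standard error 0.33, 95% interval 0.50 to 1.96, adjusted p = 0.114) and 1.08 (standard error 0.33, 95% interval 0.36 to 1.81, adjusted p = 0.336).

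With NTG, HOXA3 and HOXD1 were also above DMSO in every EPZ-6438 library. Their log2 fold changes were 0.45 (95% interval 0.10 to 0.80, adjusted p = 0.190) and 0.62 (95% interval -0.00 to 1.24, adjusted p = 0.293). With siMCRS1 the groups of both genes overlapped, at 0.12 (95% interval -0.22 to 0.47) and 0.20 (95% interval -0.42 to 0.82). HOXA2, HOXA4, HOXA5 and HOXA13 overlapped in both backgrounds. Rises of the size seen for HOXC9 in the same background lie outside the intervals of HOXA3, HOXA4 and HOXA5. They lie inside that of HOXD1 with NTG and that of HOXA2 with siMCRS1 (95% interval -0.49 to 1.19). They also lie inside that of HOXA13, whose interval with NTG was -0.57 to 1.85.

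Of the 8 members 0 were called with NTG, against 0.321% of all genes higher and 0.0629% lower, and for 3 of them the unadjusted p was under 0.05. With siMCRS1 0 were called, against 0.0838% and 0.00699%, and for 1 the unadjusted p was under 0.05; edgeR called 0 in both. The median log2 fold change was 0.54 with NTG and 0.23 with siMCRS1, against -0.03 and -0.02 for all genes. In a contrast added after these values were seen, the mean EPZ-6438 effect over both siRNAs, HOXC9 rose by 1.16 (standard error 0.23, 95% interval 0.64 to 1.67, adjusted p = 0.0268). It was 1 of 8 members higher and 0 lower, against 2.57% and 0.915% of all genes, and the estimates of all 8 were above 0, with a median of 0.34. HOXA13, 1 of these 8, reached the filter only through EPZ-6438 with NTG. Its estimates and intervals with EPZ-6438 therefore lend no support to a rise, and they enter the medians of 0.54, 0.23 and 0.34. The summed level of the HOXC genes was 20.1 to 24.8 normalized counts in DMSO with NTG and 45.2 to 73.6 in EPZ-6438 with NTG, and 9.91 to 12.9 and 26.6 to 27.2 with siMCRS1. That of the HOXB genes was 7.63 to 11.5 and 1.05 to 3.55 with NTG, and with siMCRS1 it overlapped, at 2.23 to 7.71 in DMSO and 0.800 to 7.10 in EPZ-6438.

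**Figure D5:**
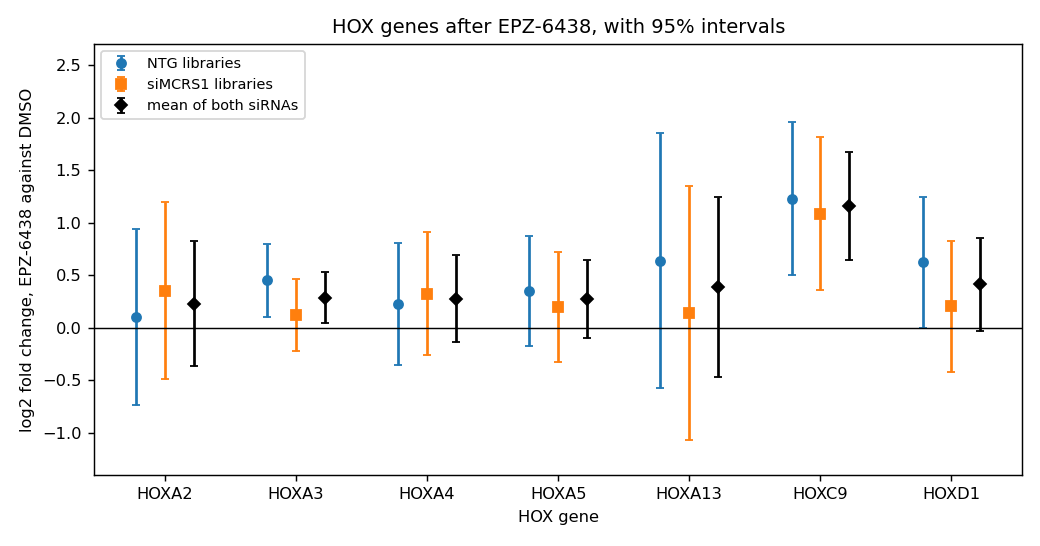
Log2 fold change of EPZ-6438 against DMSO for 7 of the 8 tested HOX genes, with 95% intervals from limma, in NTG libraries (circles), in siMCRS1 libraries (squares) and as the mean of both (diamonds). HOXC9 has the highest estimates, 1.23, 1.08 and 1.16, and its intervals stay above 0.

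The siMCRS1 and EPZ-6438 effects were also tested for dependence on each other. The interaction, the siMCRS1 effect in EPZ-6438 minus that in DMSO, was called for 0 of 8 members and for 0% of all genes in either direction, by limma and by edgeR for the members. No member and 336 of all genes had an unadjusted p under 0.05. For HOXA3 the interaction was -0.33 (95% interval -0.82 to 0.16), for HOXD1 -0.42 (95% interval -1.30 to 0.46), for HOXC9 -0.14 (95% interval -1.17 to 0.89) and for HOXA13 -0.50 (95% interval -2.21 to 1.21). These intervals are wide enough to hold differences as large as several of the effects themselves.

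Other lists are set beside the shares of all genes already given: 20.7% higher and 20.8% lower with siINO80#1, 26.6% and 28.4% with siINO80#2, 23.1% and 24.6% with siMCRS1 in DMSO, and 26.8% and 26.9% with it in EPZ-6438. In lists this short the counts below are read one gene at a time, and nothing is drawn from them about a list. TALE proteins of the PBX, MEIS and PKNOX families bind DNA together with HOX proteins, and 6 of 9 were tested. With siINO80#1 3 were higher and 0 lower, with siINO80#2 2 higher and 2 lower, and with siMCRS1 2 higher and 2 lower in each treatment. PBX3 was higher in all 4 comparisons: 178 ± 22.8 normalized counts in NTG, 248 ± 15.1 in siINO80#1 and 247 ± 21.4 in siINO80#2 (adjusted p = 0.00845 and 0.00686), and 573 ± 124 in DMSO with NTG and 1023 ± 84.4 with siMCRS1 (adjusted p = 0.00109). MEIS1 fell with siINO80#2 (log2 fold change -0.67, adjusted p = 0.00728) and with siMCRS1 (-1.14 in DMSO, adjusted p = 0.00125). PBX2 was higher with the INO80 siRNAs (0.66 and 0.53) and lower after siMCRS1 (-0.63 in DMSO, -0.80 in EPZ-6438). None of the 6 passed with EPZ-6438.

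Of the genes that flank the clusters 7 were tested, and 1 was higher and 4 lower with each INO80 siRNA, and 0 were higher and 3 lower with siMCRS1 in each treatment. HIBADH, a valine breakdown enzyme beside HOXA, fell from 2223 ± 37.9 in NTG to 1057 ± 34.98 and 953 ± 38.4 with the INO80 siRNAs (SD, n = 3 each), and from 3842 ± 143 in DMSO with NTG to 2345 ± 158 with siMCRS1. SMUG1, a uracil DNA glycosylase gene beside HOXC, fell by 0.91 and 0.86 on the log2 scale with the INO80 siRNAs and by 1.40 with siMCRS1 in DMSO. LNPK, beside HOXD, fell with both INO80 siRNAs (-0.63 and -0.83), while CALCOCO1, beside HOXC, rose (0.67 and 1.11). Of 19 noncoding genes of the clusters, such as HOTAIR, none was among the symbols of either table.

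Retinoic acid turns on anterior HOX genes in embryos and in many cultured cells, and 10 of 17 pathway genes were tested in each table. With siINO80#1 2 were higher and 2 lower, with siINO80#2 4 and 3, and after siMCRS1 4 and 3 in DMSO, 5 and 2 in EPZ-6438. CRABP2, a carrier of retinoic acid, rose from 7.90 ± 0.278 in NTG to 27.2 ± 7.50 in siINO80#1 and 87.5 ± 11.99 in siINO80#2 (adjusted p = 0.000356 and 1.84e-06). ALDH1A1, an enzyme that makes retinoic acid, fell with siINO80#2 (-1.20, adjusted p = 1.26e-05) and rose with siMCRS1 (0.61 in DMSO, adjusted p = 0.00372). Of the 6 core PRC2 genes, 0 were higher in any siRNA comparison against NTG, and 4 were lower with siINO80#1, 5 with siINO80#2, 2 after siMCRS1 in DMSO and 1 in EPZ-6438. EZH2 was 776 ± 64.8 in NTG and 559 ± 24.9 in siINO80#2 (log2 fold change -0.47, adjusted p = 0.000549). With siINO80#1 it was 755 ± 18.1 and not called (log2 fold change -0.04, adjusted p = 0.753). Of the ParaHox genes, homeobox relatives outside the clusters, PDX1 was the 1 of 6 over the filter, in the drug table, and only through EPZ-6438 with NTG, so its values are given with no test. It had 28.9 ± 9.4997 normalized counts in that group, against 4.78 ± 0.0109 in DMSO with NTG, 0.742 ± 1.29 in DMSO with siMCRS1 and 2.93 ± 0.380 in EPZ-6438 with siMCRS1, the last 2 near or under 3 reads.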

How the data were processed

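RNA was extracted from HepG2 cells and stranded mRNA libraries were made with a Kapa kit, per the labels. The authors deposited 2 tables of normalized counts, a signal that is never negative and holds counts per gene over a library's size factor; the submitters' processing notes name kallisto, DESeq2 and GRCh38, and versions are not given in the sources used here. All values (100%, tolerance 0.01 reads) were whole multiples of 1 step per library, so reads could be recovered. Groups came from the sample labels. Most drug columns carry numbers where the labels carry letters, so they were assigned to a group only, and the numbers name libraries here.

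Values were tested as log2(value + 1) with limma 3.58.1 (R 4.3.3; lmFit, eBayes with trend), with all groups of a table in 1 fit over genes whose mean reached 10 normalized counts, and Benjamini-Hochberg adjustment over all genes tested (threshold 0.05). Such fold changes are too small for low genes. Each adjusted p without a named tool is from this fit. Alternatives included edgeR 4.0.16 on recovered reads. The script was tested on simulated data. Coordinates are from RefSeq (GRCh38) and transcript lengths from GENCODE, matched by symbol. Values in every library are given for members past the threshold in a comparison of that table and for the highest member of each cluster; exceptions are named as such. For other lists at most 4 genes with the lowest adjusted p are named. Members and lists were chosen with earlier results of these data known. One item is not reported here. ChIP-seq files were not used here.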

Additional observations from a re-analysis of the deposited data

Results flagged for a closer look

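HOXD1 differed between the INO80 siRNAs, with a log2 difference of -0.86 for siINO80#2 against siINO80#1 (standard error 0.18, adjusted p = 0.00707 from limma), by a test of the difference itself. The siINO80#2 libraries lay below those of siINO80#1 in 3 of 3 cases. No group had the 4 libraries needed to test a single library against its replicates.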

How the results depend on the processing

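Over 55 log2 fold changes of tested members and 1082 values under alternatives, 1031 kept their direction where called and their side of the threshold, 28 lost it, 23 gained it and 0 called values changed sign. HOXD1 with siINO80#2 (20 of 20 alternatives, adjusted p 0.00546 to 0.0435) and HOXA3 with siMCRS1 (20 of 20 in each treatment, adjusted p 0.000541 to 0.0486 in DMSO) kept the call throughout. HOXA3 with siINO80#2 passed in 10 of 20 (adjusted p 0.00239 to 0.178). Most of the 55 fold changes were not called in the main fit, so most of the 1031 are uncalled values that stayed uncalled. All 28 losses fall on the few that were called.

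The count of members called with siINO80#1, 0 in the report, was 1 with the groups compared alone in the fit, and 0 to 1 as each library was left out. With siINO80#2, 2 in the report, it was 5 without a filter on low values in limma, 5 without it in edgeR, 3 with a filter of a mean of 50, 1 without a trend, 1 with the groups compared alone, and 1 to 2 as each library was left out (1 without siINO80#1 library B or C or NTG library C). With EPZ-6438 and NTG it was 1 for the mean over both siRNAs. With siMCRS1 in DMSO, 3 in the report, it was 4 without a filter, 5 in edgeR without a filter and 1 to 4 as each library was left out. With siMCRS1 in EPZ-6438, 4 in the report, it was 8 without a filter, 7 in edgeR without a filter, 5 with quantile normalization, 5 without a trend, 3 with a filter of a mean of 50, and 2 to 4 as each library was left out. The cause was not tested beyond the larger number of genes tested without a filter. Where 1 library was left in a group, it was assumed to vary like the other groups.

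When the letter of the replicate entered the INO80 fit as a block, the counts were 2 with siINO80#1 (HOXA4 higher and HOXA3 lower), 3 with siINO80#2 and 1 between the siRNAs. Correlations of same-letter deviations ran from -0.08 to 0.26, with a mean of 0.103. Between other letters they ran from -0.246 to 0.104, with a mean of -0.0515. The ranges overlapped, so whether the letters pair the libraries was not settled, and the main fit has no block. No paired analysis was possible for the drug table because 8 of 10 columns have numbers in place of letters.

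Scaling to equal totals moved the median of all genes by -0.08 with siINO80#1, -0.11 with siINO80#2 and -0.23 with siMCRS1. It moved 6 of 36 group means of the named members by more than 1 SD. Leaving out a library moved 0 of 96, but this count was fixed in advance and says nothing about stability. Dropping 1 of 2 or 3 values cannot move their mean by more than their SD. Members near 3 reads per library, including nearly all of HOXB, could not be compared at this depth.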

Other observations

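HOXD4 and HOXD3, neighbours in the HOXD cluster, varied widely within groups of the drug table. Their annotated spans, chr2:176151550-176153226 and chr2:176152529-176173098, overlap on the same strand. Overlap of exons was not examined, so whether the genes share reads is not known. They are described after their values were seen and with no test. HOXD4 had 7.66 and 0 normalized counts in DMSO with NTG, 0 in all 3 libraries of DMSO with siMCRS1, 19.4, 2.13 and 12.6 in EPZ-6438 with NTG, and 20.8 and 0 in EPZ-6438 with siMCRS1. HOXD3 had 3.83 and 0.954 in DMSO with NTG, 0, 1.10 and 1.43 in DMSO with siMCRS1, 11.9, 0.710 and 11.6 in EPZ-6438 with NTG, and 6.40 and 0 in EPZ-6438 with siMCRS1. The library with the highest HOXD4 value of a group also had its highest HOXD3 value, except in DMSO with siMCRS1, where HOXD4 had none. In the INO80 table HOXD4 had at most 1 read in any library.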
